A study of Mus musculus with 8 samples.

Results

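The genes described here are 8 ADAMTS protease genes, Adamts1, Adamts2, Adamts4, Adamts5, Adamts8, Adamts9, Adamts12 and Adamts15. They were chosen by name from the GENCODE annotation of the mouse build mm9, where all 8 were found among 22367 protein-coding genes on the autosomes, X and Y. The measurement is ChIP-seq for BRG1 in whole adult hearts, with 2 BRG1 libraries and 2 input libraries from PBS-primed, injured hearts and the same numbers from Tβ4-primed, injured hearts, 8 libraries in all. The C57BL/6 mice were 10 to 12 weeks old by the labels, while the paper names C57BL/6J and an older range for injured mice. They received PBS or Tβ4 (thymosin β4, a small actin-binding peptide) at 12 mg per kg each day for a week by intraperitoneal injection, then MI by a permanent LAD ligature, with further doses on days 0 and 2 after surgery. Hearts were taken on day 4, and the antibody was a rabbit polyclonal against BRG1. The values below come from 1 deposited list of 524614 regions, named as BRG1 against input in injured hearts primed with Tβ4. The list gives positions alone, without a height, a score or a separation of the duplicates, so depth and replicate error are unknown and the effect of Tβ4 against PBS was not tested. The label under which the 8 genes were grouped, BRG1 targets in endocardium, cannot be checked with the list, because it comes from whole hearts and holds neither expression nor cell type. PBS-primed and input data were not analysed here.

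ADAMTS proteins are secreted zinc metalloproteases with thrombospondin repeats that cut the extracellular matrix. One branch of the family cleaves the hyaluronan-binding proteoglycans versican and aggrecan, and others process procollagens or cartilage oligomeric matrix protein. BRG1 is the ATPase of the SWI/SNF chromatin remodelling complex, and in the embryonic heart endocardial BRG1 is known to repress Adamts1, which protects the versican-rich cardiac jelly during trabeculation.

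Coverage differed widely among the 8 genes. The share of bases inside regions, over a window of the gene with 5 kb flanks, ran from 16.0% at Adamts8 to 79.3% at Adamts4, with a median of 30.3%. The median of all protein-coding genes was 25.2%, with quartiles of 15.5% and 35.2%. Of the 8 genes, 5 lay above that all-gene median, against 50% of all protein-coding genes, so the count itself is close to the background. By number of regions the genes were more alike, from 0.189 regions per kb at Adamts5 to 0.247 at Adamts4, around an all-gene median of 0.228. On this measure 3 of the 8 genes exceeded the all-gene median, which at most 50% of all genes can exceed. All 8 values lay inside the all-gene quartiles of 0.169 and 0.302. Number and covered share thus ordered the genes differently, with Adamts4 highest on both and Adamts5 lowest by number.

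Each gene was also ranked by covered share among the 200 protein-coding genes nearest to it in length, and the rank is given as a percentile. Adamts4 ranked at 100, Adamts9 at 91.0 and Adamts5 at 86.0. These genes carried more cover than most genes of their length, and the rest lay nearer the middle or below it. Adamts15 followed at 68.0 and Adamts12 at 63.0. Adamts1 was at 49.5, Adamts2 at 36.5 and Adamts8 at 29.0. Leaving out regions of 10 kb or more at all genes put Adamts5 at 24.0 and Adamts12 at 45.5, with Adamts4 at 100 and Adamts9 at 94.0. The longest regions of Adamts4 (8760 bp) and Adamts9 (9990 bp) fell under this cut, so neither gene lost a region to it. By number of regions per kb, Adamts5 was at 31.0, Adamts4 at 52.5 and Adamts9 at 59.0. The covered shares of Adamts15 and Adamts12, each 30.3%, cannot be ordered at this precision.

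**Figure D1:**
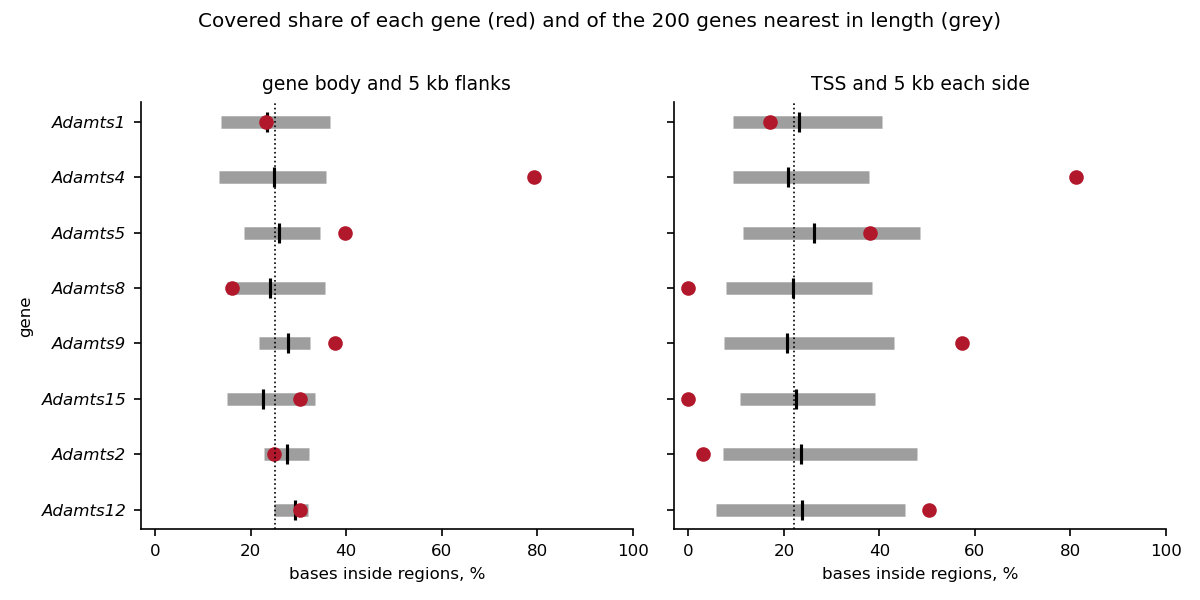
Share of bases inside BRG1 regions (x axis, %) for each of the 8 genes (red points) over the gene body and 5 kb flanks (left) and the TSS and 5 kb on each side (right). Grey bars span the quartiles of the 200 genes nearest in length, black ticks mark their medians, and dotted lines the medians of all protein-coding genes, 25.2% and 22.2%; Adamts4 lies at 79.3% and 81.2%, and Adamts8 and Adamts15 lie at 0.0% in the right panel.

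The plot of covered shares sets the window beside the TSS. Within 5 kb of the TSS, 6 of the 8 genes had at least 1 region, as did 90.5% of all protein-coding genes. The covered share of this interval exceeded the all-gene median of 22.2% at 4 of the 8 genes, against 49.7% of all genes. The spread was wide, since Adamts4 (81.2%), Adamts9 (57.3%) and Adamts12 (50.4%) stood at the top, while Adamts8 and Adamts15 had no base in a region. A region lay over the TSS itself at 1 of the 8 genes, Adamts4, against 24.2% of all protein-coding genes. With the start of any annotated transcript allowed the count was 3, against 37.3% of all genes, as Adamts9 and Adamts12 joined Adamts4. The same 3 genes had a region within 500 bp of the TSS, against 43.9% of all genes.

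Among the proteases that cleave versican and aggrecan, Adamts4, the first aggrecanase to be purified from cartilage, was the most covered. Adamts4 is a gene of 10217 bp with 9 exons on the plus strand of chromosome 1, from 173180552 to 173190768. Its window held 5 regions, of which 3 touched the gene body and covered 90.6% of it. A single region of 8760 bp ran from −3.12 to +5.64 kb around the TSS, across exons 1 to 4, and held 54.7% of the covered bases of the window. The next, of 1020 bp, touched exons 5 to 7, and one of 4260 bp took in exon 9 and ended beyond the gene, at +11.9 kb. Almost the whole of Adamts4 was thus inside regions, exons and introns alike. The longest stretch of the gene without a region was 720 bp, from +6.90 to +7.62 kb, and contained exon 8. Regions covered 93.2% of the exon bases and 88.3% of the intron bases of Adamts4.

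Adamts4 was covered more than any of the 200 genes nearest to it in length (10028 to 10409 bp), whose highest value was 78.5% and whose median was 24.9%. It stood at rank 150 among all 22367 protein-coding genes, with 0.666% of them above it. Its number of regions was ordinary for its length, at a percentile of 52.5. The 100 kb on the lower-coordinate side of Adamts4 were covered to 44.3% and those on the other side to 30.9%, against 25.8% of the genome, so coverage was above the genome's share on both sides of the gene too.

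Adamts1, a protease of versican and aggrecan that also restrains angiogenesis, had no region in its gene body. It spans 9287 bp with 9 exons on the minus strand of chromosome 16, from 85794072 to 85803358. An empty gene body was found at 1 of the 8 genes, against 15.9% of all protein-coding genes and 13% of the 200 genes nearest to Adamts1 in length. The 4 regions of its window all lay in the flanks. Upstream, a region of 1710 bp ran from −4.95 to −3.24 kb. Adamts1 itself was therefore bare between covered flanks. Beyond the 3′ end, regions of 270 and 210 bp were followed by one of 5430 bp that began 12.0 kb from the TSS.

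The empty stretch around Adamts1 measured 14.3 kb, from 85792260 to 85806599, without unsequenced bases. Of all protein-coding TSSs, 15.2% lay in an empty stretch at least as long. Because its flanks were covered, to 34.2% on the 5′ side and 55.4% on the 3′ side, the window of Adamts1 reached 23.2% and a percentile of 49.5. Over the gene body alone the percentile was 6.50, and with 10 kb flanks it was 63.5, so the rank of Adamts1 depended on how much flank was counted.

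The promoter of Adamts1, chr16:85803309-85803608 of mm9 on the minus strand, is given as the start site of the gene best known as a BRG1 target, over which no region was listed. It runs from 250 bases before to 50 after the start. TGANTCA (AP-1), TTNNGNAA (C/EBP) and GGAAAA (NFAT) were sought on both strands, and the only match was 1 to GGAAAA, read on the opposite strand and beginning at −242 from the TSS, in capitals.
Adamts1: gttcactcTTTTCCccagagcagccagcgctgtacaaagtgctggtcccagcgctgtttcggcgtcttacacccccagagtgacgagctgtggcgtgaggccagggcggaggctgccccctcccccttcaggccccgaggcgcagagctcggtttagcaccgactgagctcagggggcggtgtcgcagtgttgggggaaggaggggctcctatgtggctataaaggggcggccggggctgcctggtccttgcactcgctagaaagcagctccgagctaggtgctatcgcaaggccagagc
The Adamts1 promoter held 18 CG dinucleotides, where the median of the 22362 protein-coding promoters of this length without unsequenced bases was 11.

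Adamts5, the main aggrecanase of mouse cartilage, lies next to Adamts1 on chromosome 16, from 85858415 to 85901370, also on the minus strand. It is 42956 bp long with 8 exons. Its window held 10 regions, and 9 of these touched the gene body, which was covered to 48.3% and stood at a percentile of 92.5 for its length. Near the start, a region of 300 bp lay from −1.47 to −1.17 kb and one of 5400 bp from +1.5 to +6.90 kb, over the end of exon 1 and into intron 1. The TSS of Adamts5 itself lay between them, outside any region. Intron 2 held 6 regions of up to 1020 bp, which covered 36.5% of it.

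The longest region of Adamts5 measured 11520 bp, from +25.4 to +36.9 kb, and took in exons 4 to 7. It held 54.7% of the covered bases of the window. Regions covered 15.8% of the exon bases of Adamts5 and 55.9% of its intron bases, the reverse of Adamts4 in order; the long last exon held no region. With regions of 10 kb or more left out at all genes, the percentile of Adamts5 was 24.0, and by number of regions per kb it was 31.0.

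The short region upstream of Adamts5 is shown as the listed region nearest to that start site. It occupies chr16:85902540-85902839 of mm9 and is written on the minus strand, in the direction of the gene.
Adamts5 upstream region: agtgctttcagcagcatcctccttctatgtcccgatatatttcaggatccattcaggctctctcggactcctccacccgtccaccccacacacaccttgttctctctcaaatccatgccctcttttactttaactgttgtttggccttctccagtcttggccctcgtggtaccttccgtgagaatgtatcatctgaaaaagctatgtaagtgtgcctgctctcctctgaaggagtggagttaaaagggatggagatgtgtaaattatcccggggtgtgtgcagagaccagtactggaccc
None of the 3 motifs matched in it, so it has no capitals. Of the 38033 regions of the list with this length and no unsequenced base, 53.4% held a C/EBP match, 27.0% an NFAT match and 7.96% an AP-1 match.

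Adamts1 and Adamts5 are transcribed in the same direction, with 55.1 kb and no annotated gene between them. The interval held 8 regions, which covered 14.3% of it, a smaller share than the 25.8% of the genome. All 8 lay on the side of Adamts1, within 25.4 kb of its TSS, and the longest measured 3690 bp. Next came 35.7 kb without a region, from 85828740 to 85864469, which reached 6.06 kb into the 3′ end of Adamts5. Only 0.123% of the gaps between neighbouring regions of the list were longer, counting gaps without unsequenced bases. The neighbours thus differed at their 3′ ends, where Adamts1 had 55.4% of its 5 kb flank in regions and Adamts5 had 0.0%.

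**Figure D2:**
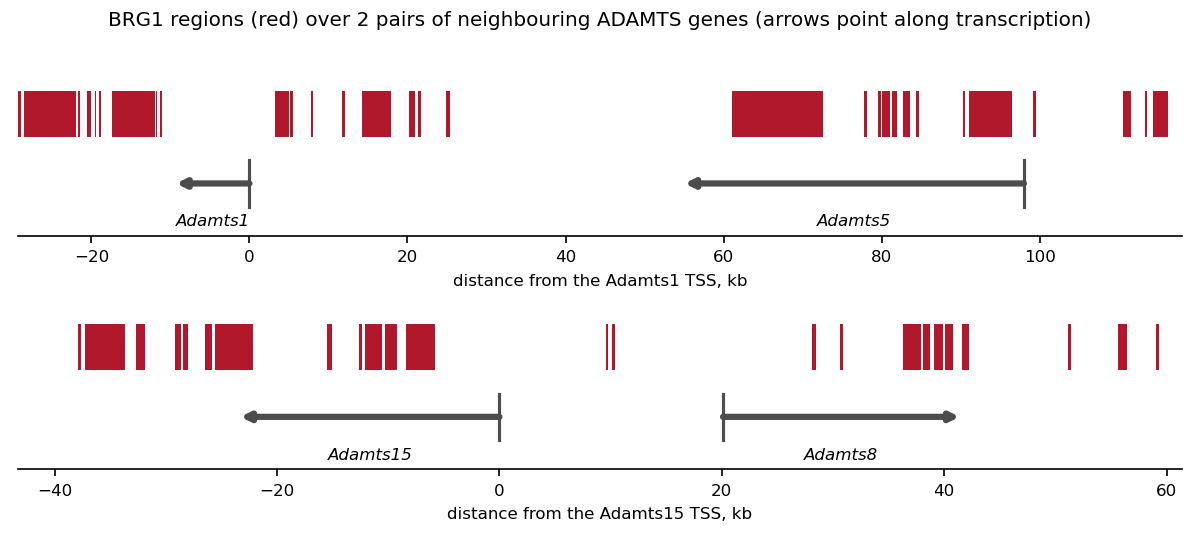
BRG1 regions (red) over Adamts1 and Adamts5 on chromosome 16 (top) and Adamts15 and Adamts8 on chromosome 9 (bottom), with 20 kb beyond each pair; the x axes give the distance in kb from the TSS of the first gene named, and arrows point along transcription. The 35.7 kb without a region lie between +25.4 kb and the 3′ part of Adamts5, and the starts of Adamts15 and Adamts8 lie in empty stretches of 15.4 and 17.7 kb.

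Adamts9, a versican protease needed for heart valve and ventricular development, is a gene of 170794 bp with 40 exons on the minus strand of chromosome 6, from 92722693 to 92893486. Its window held 40 regions and was covered to 37.6%, above 182 of the 200 genes nearest in length, whose median was 27.7%. Regions lay close to its TSS on both sides, one of 900 bp ending 404 bp upstream and one of 1620 bp beginning 857 bp downstream, across exon 2. Upstream the cover was nearly continuous, at 78% of the 5 kb flank.

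Within Adamts9 the covered share was greatest at the 3′ end. With the gene cut into 4 equal parts, the last was covered to 60.8%, against 22.8% of the part at the 5′ end and 19% of the next. Its longest region, of 9990 bp, began at +164.5 kb and included exons 39 and 40, and the 3′ flank was covered to 90.4%. Intron 31, of 8.84 kb, was covered to 93.4%, whereas no region lay between +57.6 and +79.4 kb. Other annotated genes overlap Adamts9 on the plus strand (A730049H05Rik, Gm15737 and 9530026P05Rik, the last across the TSS), and regions over shared bases cannot be assigned to one gene.

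Adamts8 and Adamts15 form another pair, on chromosome 9, and point away from each other. Adamts15, which cleaves versican during muscle formation, spans 23298 bp on the minus strand from 30706740 to 30730037, and Adamts8, a protease with aggrecanase and anti-angiogenic activity, spans 21277 bp on the plus strand from 30750147 to 30771423. Their TSSs are 20.1 kb apart, with no annotated gene between. The interval held 2 regions, of 240 and 270 bp, near its middle, and 2.54% of it was covered. The start of Adamts15 lay in an empty stretch of 15.4 kb and that of Adamts8 in one of 17.7 kb; 13.3% and 10.0% of all protein-coding TSSs lay in stretches at least as long.

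Past these empty starts the genes differed from each other. In Adamts15 the first region, of 2550 bp, began 5.84 kb downstream of the TSS in intron 1, and part 2 of 4 equal parts of the gene was covered to 80.2%. A region of 3450 bp lay over the end of its last exon and on into the flank. In Adamts8 the first region, of 390 bp, began 7.98 kb downstream, also in intron 1, and part 4 was covered to 70.5% by regions of 1620 bp or less. The window of Adamts15 was covered to 30.3% and that of Adamts8 to 16.0%, at percentiles of 68.0 and 29.0. Adamts8 was the only one of the 8 genes without a region longer than 1.62 kb.

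**Figure D3:**
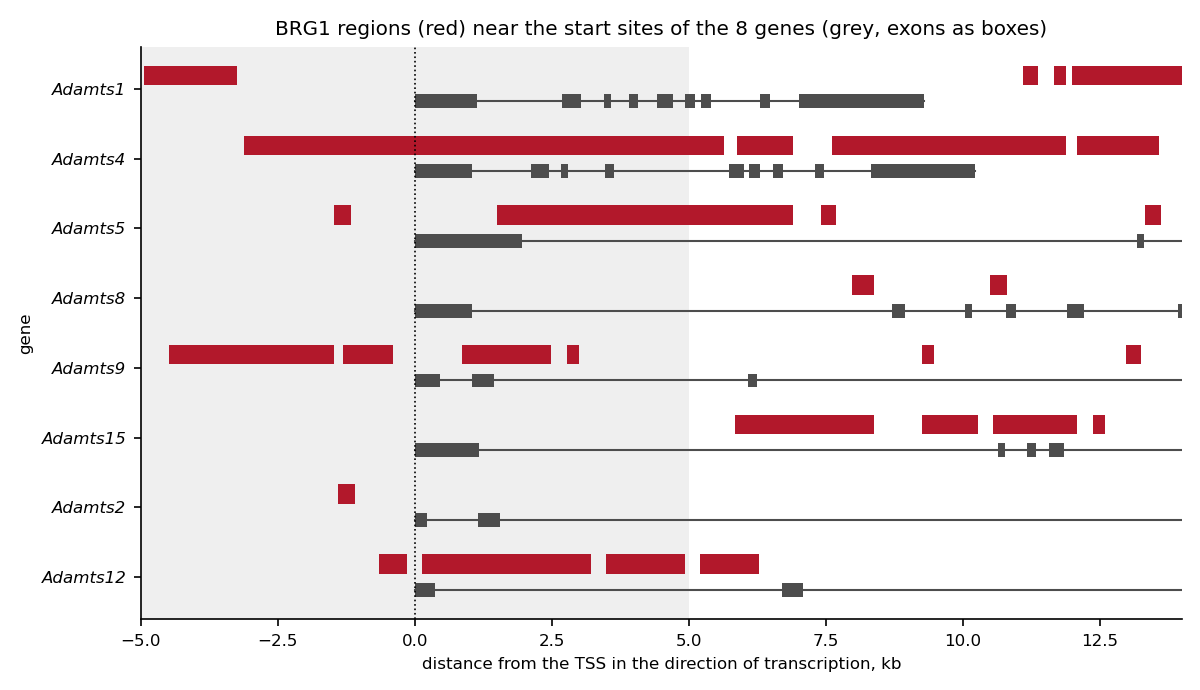
BRG1 regions (red) from 5 kb before to 14 kb after the TSS (dotted line) of the 8 genes, with exons as grey boxes; the x axis is the distance from the TSS in kb along transcription and the shaded band is the TSS and 5 kb on each side. A region crosses the TSS of Adamts4 alone, regions of Adamts12 and Adamts9 stop 125 to 857 bp from it, and the band is empty at Adamts8 and Adamts15.

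Adamts2, the procollagen N-propeptidase that trims fibrillar collagens, is 205490 bp long with 22 exons on the plus strand of chromosome 11, from 50415586 to 50621075. Of its 51 regions 49 touched the gene body, and regions per kb stood at a percentile of 75 for its length. Of the 51, 25 measured less than 500 bp, or 49.0%, against 43.1% of regions in the windows of all protein-coding genes. The covered share, 24.9%, had a percentile of 36.5. Adamts2 was thus above most genes of its length by number and below most by covered bases.

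The start of Adamts2 was nearly empty. One region of 300 bp lay from −1.40 to −1.10 kb, and the next began 14.6 kb downstream, in intron 2, so that 3.0% of the 10 kb around the TSS was covered, at a percentile of 14. The exons of Adamts2 had little cover too, with 3.96% of exon bases inside regions against 26.8% of intron bases. Of the 49 regions of the gene body, 21 lay in intron 3, a 69.0 kb intron covered to 35.5%, and 13 lay in intron 2. The longest, of 8730 bp, began at +100.9 kb in intron 3. That intron also contains Gm12199 and Gm12200, annotated on the minus strand, and regions over shared bases cannot be assigned to one gene.

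The upstream region of Adamts2, chr11:50414190-50414489 of mm9 on the plus strand, is printed as the only one within 5 kb of that start. Capitals mark its 2 C/EBP matches.
Adamts2 upstream region: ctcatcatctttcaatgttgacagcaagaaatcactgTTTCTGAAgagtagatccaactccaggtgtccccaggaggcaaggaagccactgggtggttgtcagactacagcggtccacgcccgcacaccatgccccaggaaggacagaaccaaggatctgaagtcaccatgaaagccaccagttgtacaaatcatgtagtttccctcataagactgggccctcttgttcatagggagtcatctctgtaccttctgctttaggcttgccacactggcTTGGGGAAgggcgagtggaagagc
Neither NFAT nor AP-1 letters occurred in it. The region also lies within Gm12198, a non-coding RNA gene on the minus strand that overlaps the start of Adamts2.

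Adamts12, which cleaves cartilage oligomeric matrix protein, is the longest of the 8 genes, with 282078 bp and 24 exons on the plus strand of chromosome 15, from 10994545 to 11276622. Of its 62 regions 61 touched the gene body, and it had a covered share of 30.3%, where the median of genes of its length was 29.2%. Its start was closely framed, with a region of 510 bp ending 146 bp upstream and one of 3090 bp beginning 125 bp downstream in exon 1. The gap between them measured 270 bp and held the TSS. Intron 1 of Adamts12, of 6.34 kb, was covered to 84.6%.

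Along Adamts12 the cover was greatest at the 5′ end and least at the 3′ end, with 42.6% of part 1 of 4 and 14.8% of part 4, and introns 22 and 23 had no region. The longest region, of 12420 bp, began at +185.9 kb and spanned exons 8 to 11. It held 14% of the covered bases, and without regions of 10 kb or more the percentile of Adamts12 was 45.5 in place of 63.0. Of the 62 regions, 27 measured less than 500 bp, or 43.5%, about the share in all gene windows.

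The promoter of Adamts12, chr15:10994295-10994594 of mm9 on the plus strand, is shown because it contains most of the gap between those regions. Of its 300 bases, the 105 at the 5′ end lay inside the upstream region, and the rest, TSS included, lay outside. Capitals mark the 1 NFAT match, which begins at −106 from the TSS.
Adamts12: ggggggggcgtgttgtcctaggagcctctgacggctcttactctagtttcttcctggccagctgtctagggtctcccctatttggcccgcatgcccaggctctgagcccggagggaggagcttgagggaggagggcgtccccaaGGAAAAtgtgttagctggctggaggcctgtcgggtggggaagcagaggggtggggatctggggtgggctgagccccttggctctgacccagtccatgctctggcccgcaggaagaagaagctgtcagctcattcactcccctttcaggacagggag
The Adamts12 promoter held no C/EBP or AP-1 match and 7 CG dinucleotides.

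**Figure D4:**
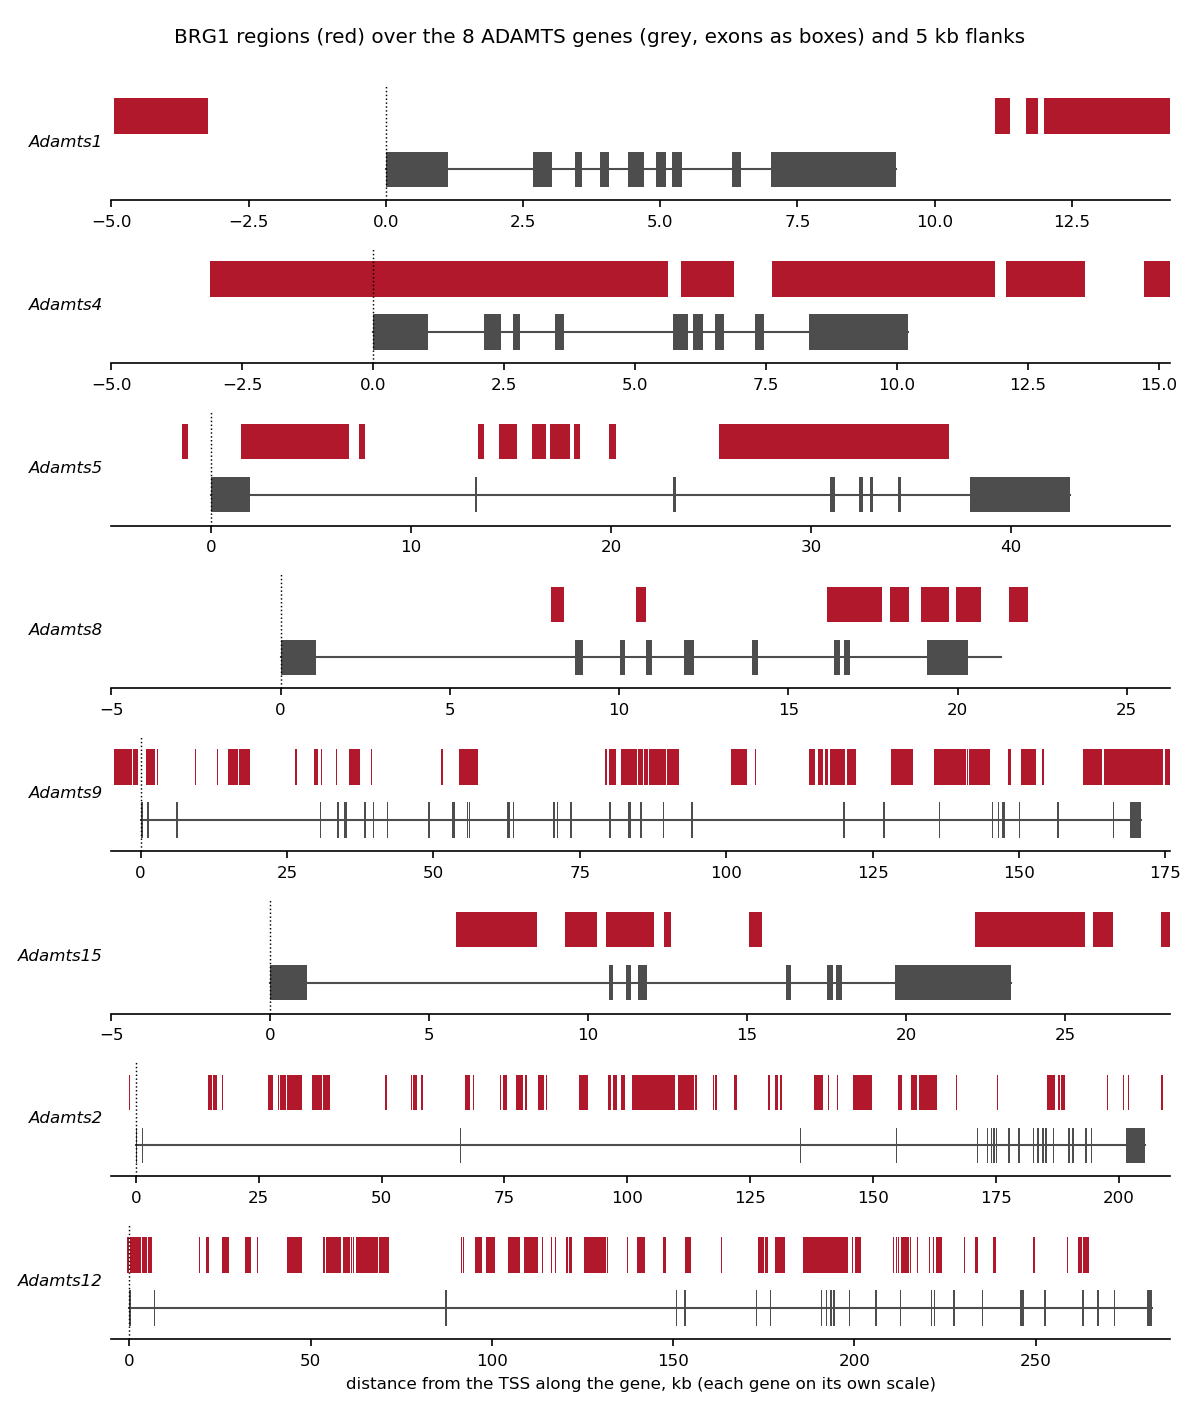
BRG1 regions (red) over each of the 8 genes and 5 kb on either side, with exons as grey boxes (drawn at a minimum width in long genes); the x axis is the distance in kb from the TSS (dotted line) along the gene, on its own scale for each gene. The gene body of Adamts1 is empty, that of Adamts4 is covered to 90.6%, and the covered share of Adamts9 is greatest at its 3′ end.

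The map of whole genes shows no common arrangement. Pooled over all protein-coding genes, the 4 equal parts of the gene body were covered almost evenly, from 27.3% to 27.6%. Among the 8 genes the most covered was part 1 in Adamts12, part 2 in Adamts15, part 3 in Adamts2 and Adamts5, and part 4 in Adamts8 and Adamts9. Exon and intron bases of all protein-coding genes were covered to 26.6% and 27.5%. Of the 8 genes, 4 (Adamts2, Adamts5, Adamts12 and Adamts15) had the larger share in introns, against 50.5% of all genes with introns. The gap ran from 0.521 percentage points in Adamts15 to 40.0 in Adamts5. In the other direction it was clear only in Adamts4 and Adamts8, as Adamts9 was level and Adamts1 had no cover.

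In all, 187 regions touched the windows of the 8 genes, with a median length of 750 bp against 630 bp for the windows of all protein-coding genes. Of the 187, 11 were at least 5 kb long, a share of 5.88% against 4.24%, and 2 (in Adamts5 and Adamts12) were at least 10 kb long, a share of 1.07% against 0.452%. The shortest measured 210 bp, which was also the shortest length in the list.

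Base composition was compared inside and outside regions. Bases in regions were richer in G and C than the rest of the window at 4 of the 8 genes (Adamts4, Adamts5, Adamts9 and Adamts15), against 38.6% of all genes with bases of both kinds, though the gap was slight in all but Adamts4. The largest gaps were in opposite directions, 51.0% inside against 47.0% outside at Adamts4, and 37.9% against 46.0% at Adamts1. Over all protein-coding windows the values were 42.7% inside and 43.3% outside. With all genes split into 5 equal groups by GC content of the TSS and 5 kb on each side, the median covered share of that interval ran from 21.6% to 22.9%. Adamts2 and Adamts4 fell in the group richest in G and C. Whether base composition bears on the cover of these genes was not tested.

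Motifs were counted in the promoters of 7 of the 8 genes, all but Adamts4, so the counts describe only the genes without a region over the TSS. The background of all promoters was not restricted in this way. An NFAT match was found at 3 (Adamts1, Adamts8 and Adamts12), where 23.6% of all promoters had one. None of the 7 had a C/EBP or an AP-1 match, which occurred in 38.9% and 6.93% of all promoters. Adamts2 had the most CG dinucleotides, 41, at a percentile of 96.3 among promoters, and no base of its promoter lay in a region. Letters that match are a description of the sequence and not evidence of a bound factor. RefSeq gave a promoter for 4 of the 8 genes, on the build GRCm38.p6, and each matched mm9 at a single place; its start lay 0 bp from the GENCODE start for Adamts1, 1 bp downstream for Adamts2, and at −17 bp for Adamts12 and −42 bp for Adamts9. None of these starts lay in a region.

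The other 11 ADAMTS protease genes had a median covered share of 27.0%, from 20.7% at Adamts20 to 39.3% at Adamts6. Of these, 7 lay above the all-gene median, against 50% of all genes, and 2 had a region over the TSS, against 24.2% (Adamts6 and Adamts18; genes named for this feature, here and below, were picked after their values were seen). Adamts4 was therefore the most covered of all 19 ADAMTS proteases, and the next, Adamts5, reached 39.8%. Adamts1 was the only one of the 19 without a region in its gene body. The 6 genes of ADAMTS-like proteins and papilin, which share the domains but lack the protease, had a median of 24.7%. Values ran from 2.49% at Adamtsl5 to 36.7% at Adamtsl3. A region lay over the TSS at 1 of the 6 (Papln), against 24.2% of all genes.

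Genes for the substrates and matrix partners of the 8 proteases had a median of 31.4%. Of these, 9 of 12 lay above the all-gene median, against 50% of all genes. Vcan, which encodes the versican core protein, had 22 regions, all in the gene body, and a covered share of 37.8%, at a percentile of 86.5 for its length. The chains of collagen I, a substrate of Adamts2, lay at both extremes: Col1a1 had no region in its window and Col1a2 had 59.5%. A region lay over the TSS at 4 of the 12 (Acan, Bcan, Col3a1 and Has2), against 24.2% of all genes. Among 6 genes for protease inhibitors and the activating protease furin, the median was 33.6%. Values ran from 16.9% at Timp1 to 42.2% at Timp3, the inhibitor with the broadest action on ADAMTS aggrecanases. Of these 6, 1 (A2m) had a region over the TSS, against 24.2% of all genes.

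For context, 6 genes expressed in endocardium or endothelium had a median of 22.3%. Npr3, a natriuretic peptide receptor of the endocardium, was highest with 36.4%. It was the only 1 of the 6 with a region over the TSS, against 24.2% of all genes. Nfatc1, a transcription factor of the endocardium, was lowest with 11.8%. Of the 6, 3 lay above the all-gene median, against 50% of all genes. These values are of whole hearts and name no cell type.

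**Figure D5:**
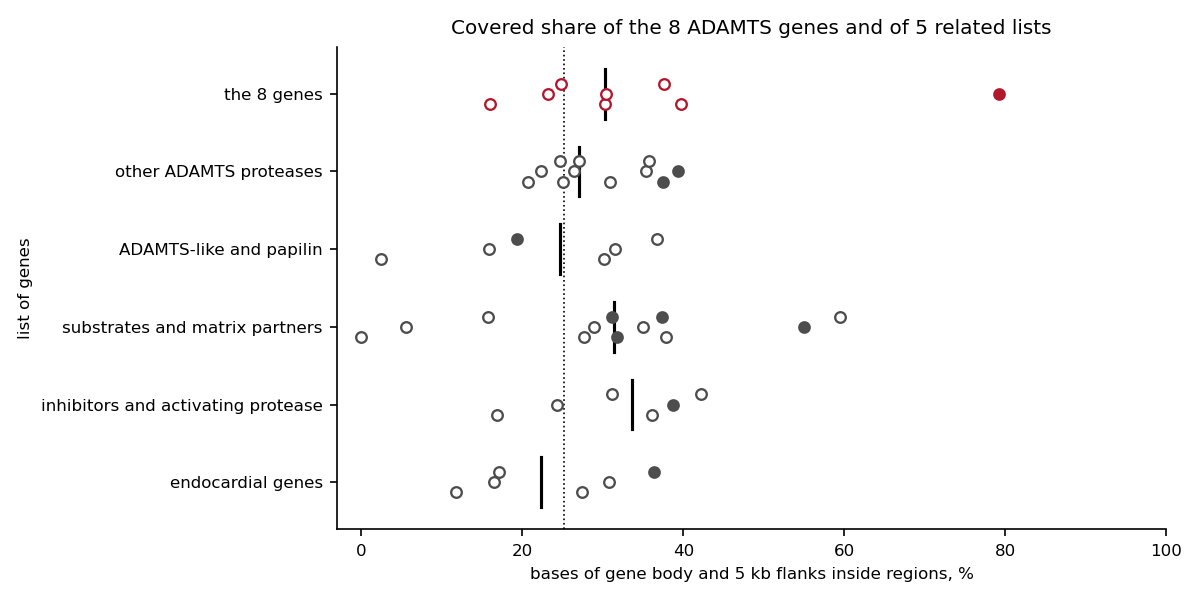
Covered share of the gene body and 5 kb flanks (x axis, %) for each gene of the 8 described and of 5 related lists; filled points have a region over the TSS, black bars are list medians and the dotted line is the median of all protein-coding genes, 25.2%. Adamts4 lies furthest right at 79.3%, and the medians of the lists run from 22.3% to 33.6%.

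The plot of the lists shows that their ranges overlapped throughout. The median of the 8 ADAMTS genes, 30.3%, lay between that of the other ADAMTS proteases and those of the substrates and of the inhibitors. No test was made of any difference between lists.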

How the data were processed

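The authors made duplicate BRG1 libraries with inputs from injured hearts primed with PBS or Tβ4. Reads were mapped with Bowtie 1.0.0 to mm9 and regions called with MACS2 2.0.10, versions given in the submitters' processing notes. The methods name its bdgcomp function, whereas the list's name has the form of output from bdgdiff, another MACS2 function. How duplicates were combined is not stated either, so the exact call is unknown. The deposited list holds positions in bp (start and end) and no counts, score or p-value. A region was counted where at least 1 bp fell in a window. Covered bases, region numbers and percentiles among genes of like length (ties counted as 0.5) were computed with Python 3.11.15, numpy 2.4.6 and pandas 2.3.3, and the counting was checked against bedtools 2.31.1. Exon and intron numbers follow the first protein-coding transcript that starts at the TSS, and shares of exon bases use all transcripts. Motifs were searched on both strands of mm9. The genes named are the 8 members, the highest and the lowest gene of each related list, Vcan, genes of those lists with a region over the TSS, and genes that overlap a member. Members and lists were chosen with earlier results of these data known. A comparison of protein sequences and one of repeat-masked bases were planned but not run.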

Additional observations from a re-analysis of the deposited data

How the results depend on the processing

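With 1 list, no replicate could be left out and no paired analysis was possible because the list does not separate the duplicates. The count of genes above the all-gene median over the window was 5, and 3 by regions per kb; it was 5 or 6 under the other alternatives. For the TSS and 5 kb on each side the count was 4, and 2 by regions per kb. The share of all genes above the median by regions per kb was not computed, so the exact background of the counts of 3 and 2 is unknown. A region over the TSS was found at 1 gene, at 3 with any transcript start, at 3 within 500 bp, at 3 within 1 kb (55.4% of all genes) and at 2 with regions within 500 bp joined (26.7% of all genes). The median covered share of 30.3% was 32.4% with joined regions, 29.7% with 10 kb flanks, 25.4% without regions of 10 kb or more and 29.3% without regions under 300 bp. The all-gene median of 25.2% belongs to the main setting and is not a reference for these values. Genes above the 50th percentile for their length numbered 5, 3 without regions of 10 kb or more, and 5 or 6 under the other alternatives. Of 80 percentiles under 10 alternatives, 7 changed sides of the 50th, 3 of them at Adamts1 and 2 at Adamts5. Adamts4 stayed between 99.5 and 100, except by regions per kb, but its longest region, of 8760 bp, was under the 10 kb cut. The cause of these changes was not tested. Matching on GC content as well as length was chosen after seeing the data. It put Adamts4 at 100, Adamts9 at 91.5, Adamts5 at 83, Adamts12 at 69 and Adamts15 at 68. Adamts1 was at 49, Adamts2 at 34 and Adamts8 at 28 under this matching. The authors' threshold could not be varied, and depth is unknown.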
